A study of Rattus norvegicus with 7 samples.

Results

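The potassium channel genes of the rat were followed in RNA from crypts of the distal and of the proximal colon. Members were the rows of the RNA table whose gene symbol starts with Kcn, followed by letters and a number, which gave 87 of 16468 genes in 19 lettered families. Crypts are pits of the gut lining, whose cells include stem cells, absorptive cells, mucus-making goblet cells and endocrine cells. The RNA came from Sprague Dawley rats, an outbred stock, that were 14 weeks old, with no treatment or genetic change named in the labels. The groups were distal colon crypts and proximal colon crypts, each with 1 library from material pooled from 7 rats. A single library stood for each region, so no difference below has a replicate check, and each compares these 2 libraries.

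Potassium channels let potassium ions leave or enter a cell along their electrical and chemical gradient. In colon crypts, basolateral channels return the potassium that the sodium pump and the sodium-potassium-chloride cotransporter bring in, and so keep the membrane voltage that drives chloride secretion and sodium uptake, while luminal channels secrete potassium into the gut. A channel is built from pore subunits, and auxiliary subunits change its opening or its place in the cell. The pore subunits fall into voltage-gated, calcium- or sodium-activated, inward rectifier and two-pore classes.

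Crypt markers fixed for this tissue were all present: 9 of 9 epithelial markers had at least 1 FPKM, with a summed level of 10906 FPKM in distal crypts, against 7892 FPKM in proximal crypts. FPKM are fragment numbers adjusted for the length of the transcript and the size of the library, so levels of different genes are compared here per length. Fibroblast markers summed to 0.850 FPKM in distal crypts, against 0.445 FPKM in proximal crypts, with Dcn and Lum listed at 0 in both. Neuron and glia markers summed to 20.1 FPKM in distal crypts, against 16.0 FPKM in proximal crypts, with Elavl3 and Sox10 listed at 0 in both. Syn1, which overlaps Timp1 in the table, gave most of that sum, and without the 2 markers that overlap another gene the sum was lower in distal crypts, at 3.36 FPKM, against 5.47 FPKM in proximal crypts. Smooth muscle markers summed to 48.1 FPKM in distal crypts, against 31.3 FPKM in proximal crypts, with none of the 8 found listed at 0 in both. Without Smtn, which gave most of it, the sum was 8.90 FPKM in distal crypts, against 5.48 FPKM in proximal crypts. The authors' deposited table called 1 of these markers, Des, at 2.91 FPKM in distal crypts, against 0.0398 FPKM in proximal crypts (q 0.000857).

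Few potassium channel genes were present at a clear level. A gene was called measured when 1 library or both gave it 1 FPKM or more, and 15 of the 87 potassium channel genes (17.2%) met this, against 59.8% of all genes. Another 40 were under 1 FPKM in both libraries and above 0 in at least 1, 28 of them in both, and 32 were listed at 0 in both. Genes with near-identical copies can be listed at 0 in this table, so a 0 is not read as absence. The measured genes came from 8 of the 19 families. Just inside the limit were Kcnh3 at 1.14 FPKM in distal crypts, against 0.173 FPKM in proximal crypts, Kcnj9 at 1.56 and 1.001 FPKM and Kcnh6 at 1.70 and 1.68 FPKM in the same order. Just outside it were Kcnip2 at 0.929 FPKM in distal crypts, against 0.772 FPKM in proximal crypts, Kcnk10 at 0.903 and 0.423 FPKM and Kcnd2 at 0.660 and 0.128 FPKM in the same order.

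**Figure D1:**
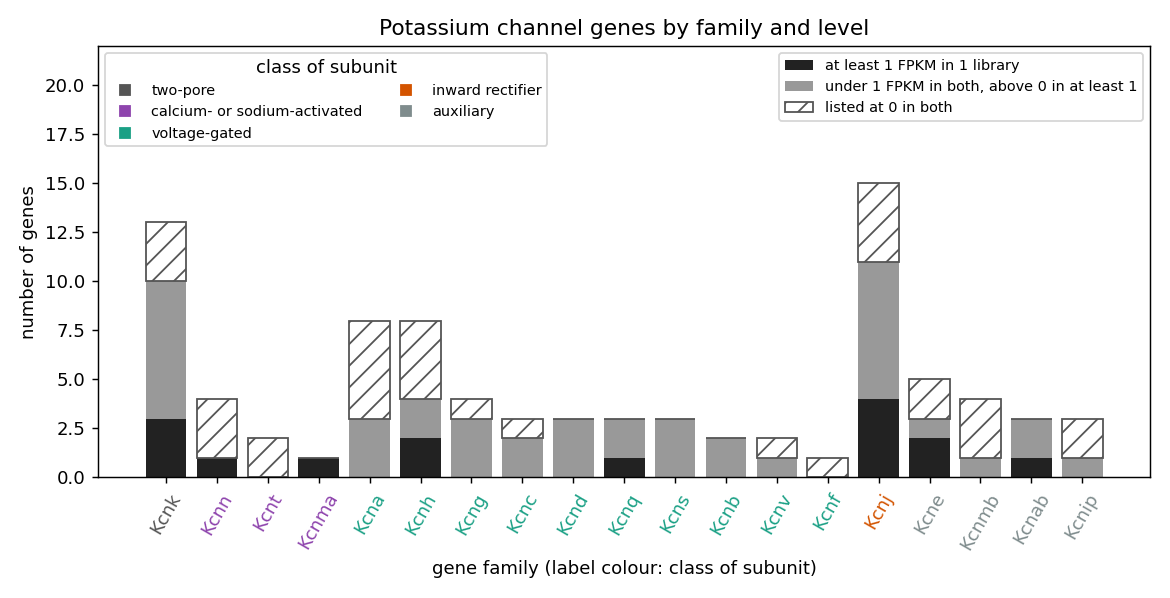
Number of potassium channel genes in each lettered family (horizontal axis, label colour by class of subunit), split into those with at least 1 FPKM in 1 library (black), those under 1 FPKM in both but above 0 in at least 1 (grey) and those listed at 0 in both (hatched). The measured genes number 15 of 87, and no Kcna, Kcnb, Kcnc, Kcnd, Kcnf, Kcng, Kcns or Kcnv gene is among them.

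The measured genes fell into 6 at a high level, each with at least 20 FPKM in both libraries, and 9 that reached at most 6.48 FPKM. The 6 high genes were Kcnk6, Kcnn4, Kcne3, Kcnk1, Kcnk5 and Kcnq1. Together they made up 95.2% of the 546 FPKM summed over all 87 genes in the distal library and 92.6% of the 408 FPKM in the proximal library. Kcnk6 was the highest potassium channel gene in both, with rank 425 among all 16468 genes in distal crypts and rank 715 in proximal crypts.

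**Figure D2:**
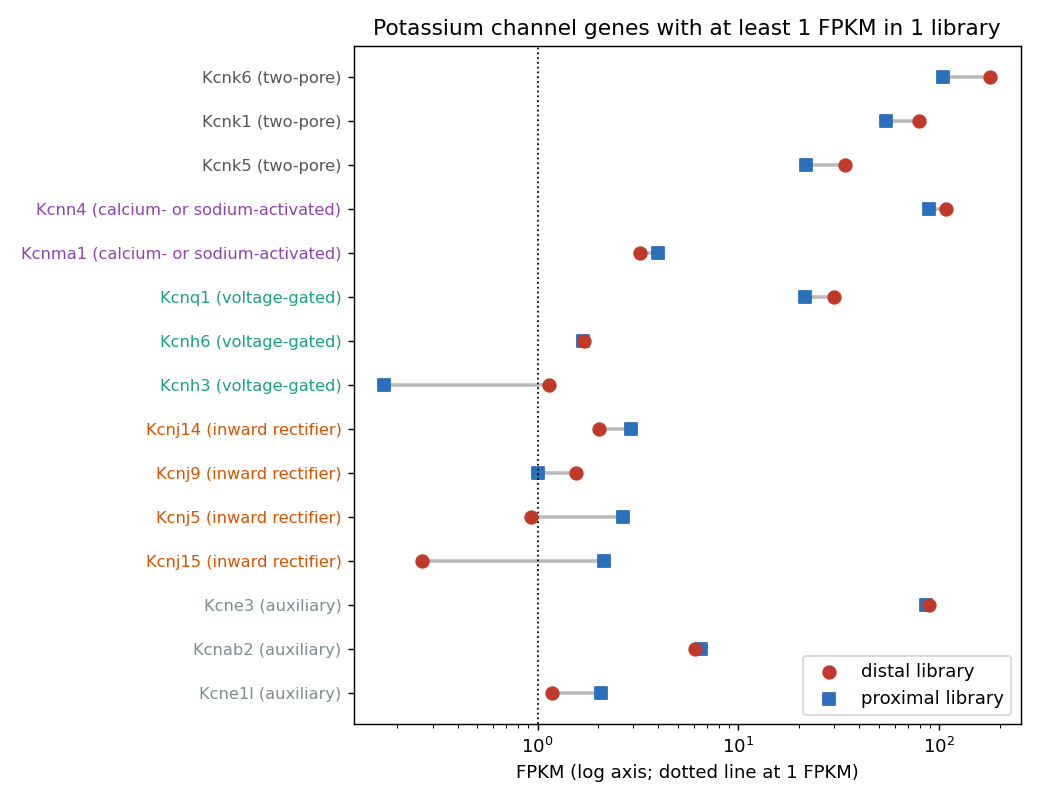
FPKM (horizontal log axis) of the 15 measured potassium channel genes in the distal library (red circles) and the proximal library (blue squares), ordered by class of subunit. The high genes lie at 21.5 FPKM or above in both libraries, and the widest separations are those of Kcnj15 and Kcnh3, whose lower values are under 0.3 FPKM.

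Differences between the regions were small for most members. Ratios were taken on the log2 scale, distal over proximal, after 1 FPKM was added to each value, which shrinks the differences of low genes, and genes with a log2 ratio of 1 or more, or of -1 or less, were counted as 2-fold apart. Of the 15 measured genes, 0 were 2-fold or more higher in distal crypts, beside 3.71% of all 9847 measured genes. In the other direction 1 of 15, Kcnj15, was 2-fold or more higher in proximal crypts, beside 3.91% of all measured genes. The median log2 ratio was 0.05 over the 15 genes and 0.09 over all measured genes. The median over the members turned negative, to -0.05 and -0.10, under rescalings of the distal values that set the median ratio of all measured genes to 0 or made the upper quartiles equal. A difference of less than 1.5-fold was seen in 10 of the 15 (66.7%), against 82.7% of all measured genes, and 7.62% of all measured genes were 2-fold apart in one direction or the other.

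Direction went with level. All 6 high genes had the higher value in distal crypts, with a median log2 ratio of 0.49. This was also the direction of 73.6% of the 4413 genes with at least 20 FPKM in 1 library, whose median was 0.17. Of the 9 lower genes, 3 were higher in distal crypts and 6 in proximal crypts, their median being -0.24, while 51.5% of the measured genes under 20 FPKM were higher in distal crypts, with a median of 0.01. Kcne3 and Kcnh6, with ratios near 0, changed direction under both rescalings of the distal library.

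**Figure D3:**
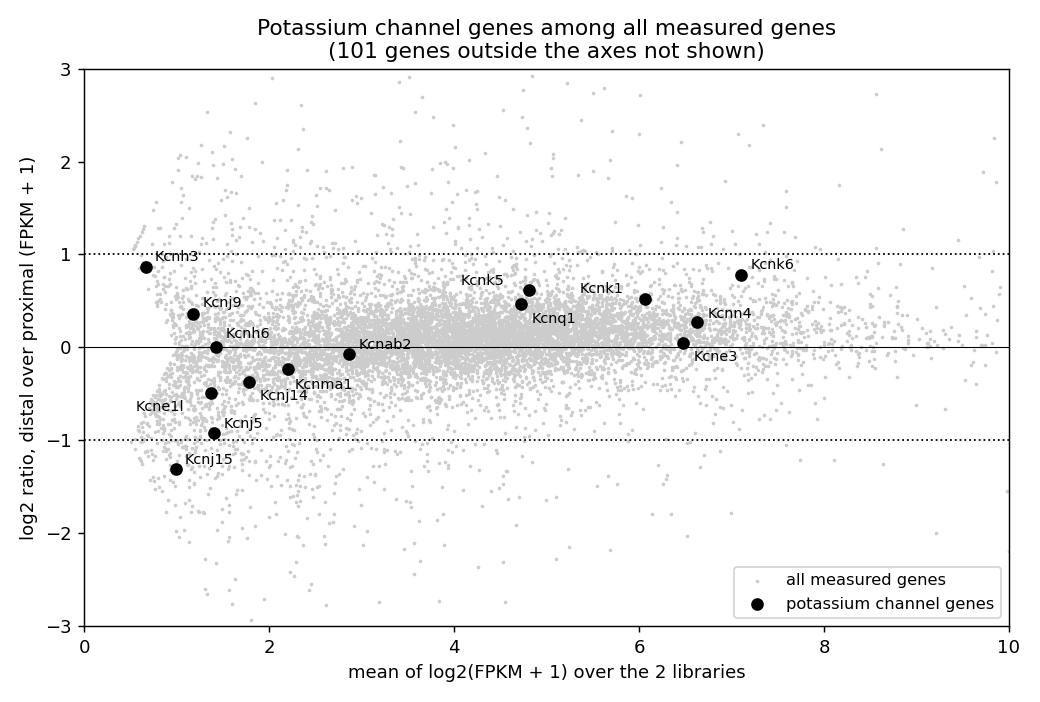
Log2 ratio of distal over proximal on the FPKM + 1 scale (vertical axis) against the mean log2(FPKM + 1) of the libraries (horizontal axis) for all measured genes (grey) and the 15 potassium channel genes (black), with dotted lines at 2-fold and 101 genes outside the axes not drawn. Kcnk6, Kcnk1, Kcnk5 and Kcnq1 lie above 0 at high levels, and Kcnj15 alone lies beyond a dotted line.

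The two-pore channels, which carry the background leak of potassium that sets the resting voltage, held the highest summed level of any class. Over 13 genes they summed to 295 FPKM in distal crypts, against 182 FPKM in proximal crypts, and nearly all of it came from 3 genes. Kcnk6, found in the rn4 build on chromosome 1 from 84359738 to 84367910, stood at 180 FPKM in distal crypts, against 104 FPKM in proximal crypts (1.73-fold). Kcnk1, on chromosome 19 at 56216600 to 56255299, stood at 79.0 FPKM in distal crypts, against 54.7 FPKM in proximal crypts (1.44-fold). Kcnk5, an alkaline-activated channel on chromosome 15 at 4380157 to 4424377, stood at 33.8 FPKM in distal crypts, against 21.7 FPKM in proximal crypts (1.56-fold). All 3 were therefore higher in distal crypts by 1.44-fold to 1.73-fold, short of 2-fold. Among genes with at least 20 FPKM, 6.64% had a log2 ratio as high as that of Kcnk6, 9.83% as high as that of Kcnk5 and 13.5% as high as that of Kcnk1.

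The authors' deposited table gave no call for any of these 3. Its log2 fold change was 0.79 for Kcnk6, with a q of 0.130 and a standard error of 0.30 implied by the table's test statistic. For Kcnk5 the deposited table gave 0.64, with an implied 0.30 and a q of 0.293, and for Kcnk1 it gave 0.53, with an implied 0.30 and a q of 0.511. That error comes from the model behind the authors' deposited table and does not measure variation between rats. In bulk libraries such as these, fewer cells of a type and less RNA per cell cannot be told apart. The sum of the epithelial markers was also higher in distal crypts, as given above. Their median log2 ratio was 0.24, beside 0.17 over all genes with at least 20 FPKM. The deposited table called none of them, and Lgr5 was lower, at 1.52 FPKM in distal crypts, against 1.73 FPKM in proximal crypts. Goblet cell markers, 5 of 6 found and all measured with none at 0, summed to 6167 FPKM in distal crypts, against 2542 FPKM in proximal crypts. Most of the goblet cell difference lay in Clca1, Fcgbp and Tff3, while Agr2 and Spdef differed by 1.16-fold and 1.17-fold. Tuft cell markers, 5 of 6 found and 4 measured with none at 0 in both, summed to 32.0 FPKM in distal crypts, against 22.6 FPKM in proximal crypts, with a median log2 ratio of 0.42. The part of these cells in the two-pore values was not tested.

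The other 10 two-pore genes were under 1 FPKM, at no more than 0.903 FPKM in distal crypts, against 0.497 FPKM in proximal crypts. Among them, 3 were listed at 0 in both. Kcnk13, at 0.319 FPKM in distal crypts and listed at 0 in proximal crypts, carried the p-value that the authors' deposited table gives most often where the other library is at 0, taken here to mark a single read. Of the 40 genes between 0 and 1 FPKM, 6 had a value that this p-value ties to a single read, 2 in distal crypts and 4 in proximal crypts.

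Promoters of 3 genes are printed: Kcnk5, high and higher in distal crypts, Kcne3, high and nearly equal between the libraries, and Kcnj15, low and the furthest apart. Of the 6 high genes, only Kcnk5 and Kcne3 were matched to a promoter. Kcnk6, higher in level and further apart than Kcnk5, was not. Each runs from 250 bases before to 50 bases after the gene start in the RefSeq table of the GRCr8 build, on the plus strand. The stretch of Kcnk5 is chr15:4171375-4171674, that of Kcne3 is chr1:163935785-163936084 and that of Kcnj15 is chr11:48070700-48070999. Capitals mark GGGCGG, the core of the GC box, and CCAAT, the CCAAT box, on either strand, and none of these matches overlaps another.
Kcnk5: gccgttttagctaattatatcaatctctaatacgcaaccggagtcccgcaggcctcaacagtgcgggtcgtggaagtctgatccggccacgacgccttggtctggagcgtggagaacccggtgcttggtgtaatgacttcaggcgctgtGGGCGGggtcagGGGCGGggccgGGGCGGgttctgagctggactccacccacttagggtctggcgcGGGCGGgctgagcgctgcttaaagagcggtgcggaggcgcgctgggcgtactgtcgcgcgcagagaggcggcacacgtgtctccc
Kcne3: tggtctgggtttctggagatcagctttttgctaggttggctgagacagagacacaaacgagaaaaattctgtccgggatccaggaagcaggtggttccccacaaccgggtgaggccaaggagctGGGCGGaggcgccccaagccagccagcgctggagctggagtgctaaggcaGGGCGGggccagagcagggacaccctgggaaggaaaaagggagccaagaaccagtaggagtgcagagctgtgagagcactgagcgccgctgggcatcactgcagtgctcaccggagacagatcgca
Kcnj15: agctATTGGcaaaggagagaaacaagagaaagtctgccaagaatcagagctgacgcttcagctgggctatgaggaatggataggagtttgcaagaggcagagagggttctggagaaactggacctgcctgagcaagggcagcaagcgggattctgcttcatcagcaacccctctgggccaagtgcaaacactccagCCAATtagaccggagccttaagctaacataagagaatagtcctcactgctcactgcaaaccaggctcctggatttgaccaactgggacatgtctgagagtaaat
GGGCGG was found at 4 places in the Kcnk5 stretch, at 2 in that of Kcne3 and at 0 in that of Kcnj15, and 34.9% of the 27457 promoters in the table hold it. CCAAT was found at 2 places in the Kcnj15 stretch and at 0 in the others, and 37.7% of all promoters hold it. Neither TATAAA, the TATA box, nor TGTTCT, a half-site of steroid receptors, was found in these 3, against 14.3% and 20.1% of all promoters. The ratio of observed to expected CG pairs was 0.983 for Kcnk5, 0.420 for Kcne3 and 0.159 for Kcnj15, with a median of 0.417 over all promoters. An entry was matched for 59 of the 87 genes, 10 of them measured. Kcnh3, Kcnk1, Kcnk6, Kcnn4 and Kcnq1 were not matched. The ratio was at least 0.6 in 4 of the 10 measured genes and in 22 of the 49 under 1 FPKM, beside 36.9% of all promoters. GGGCGG was held by 5 of the 10 measured genes and 24 of the 49 under 1 FPKM. The order of the 3 printed genes did not hold throughout. Of measured genes lower in distal crypts, Kcnma1 had GGGCGG at 5 places, Kcnj5 at 3, and Kcnab2, Kcne1l and Kcnj14 at 0. Kcnj9, higher in distal crypts, had it at 0.

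Of the calcium- or sodium-activated channels, 2 of 7 were measured and they differed widely in level. Kcnn4, the intermediate-conductance channel of the basolateral membrane that opens when calcium rises, is on chromosome 1 at 79613736 to 79628887. It stood at 108 FPKM in distal crypts, against 89.0 FPKM in proximal crypts (1.21-fold), and the deposited table did not call it. Of genes with at least 20 FPKM, 35.1% had a log2 ratio as high. Kcnma1, the pore subunit of the large-conductance BK channel of luminal potassium secretion, stood at 3.24 FPKM in distal crypts, against 3.997 FPKM in proximal crypts. Its log2 fold change in the authors' deposited table was -0.30, with an implied error of 0.44 (q 0.9996), so that the difference was smaller than this error. The other 5 (Kcnn1, Kcnn2, Kcnn3, Kcnt1 and Kcnt2) were listed at 0 in both libraries.

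The BK channel takes beta subunits of the Kcnmb family and gamma subunits with leucine-rich repeats, among them Lrrc26. Lrrc26 stood at 52.2 FPKM in distal crypts, against 33.0 FPKM in proximal crypts (1.58-fold, not called by the deposited table), above Kcnma1 in both. Of the 4 Kcnmb genes, 3 were listed at 0 in both libraries and Kcnmb4 stood at 0.182 FPKM in distal crypts and was listed at 0 in proximal crypts. The gamma subunit genes Lrrc38 and Lrrc55 were listed at 0 in both, and Lrrc52 stood at 0 in distal crypts, against 0.0677 FPKM in proximal crypts.

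Among the voltage-gated channels, 3 of 37 genes were measured and Kcnq1 was the only one above 2 FPKM. Kcnq1, on chromosome 1 at 203383401 to 203803687, forms with Kcne3 the basolateral channel of crypts that opens with cyclic AMP. Kcnq1 stood at 30.0 FPKM in distal crypts, against 21.5 FPKM in proximal crypts (1.39-fold), with a log2 fold change of 0.48 (implied error 0.30, q 0.645) in the authors' deposited table. Its partner Kcne3, on chromosome 1 at 157558044 to 157565008, stood at 89.4 FPKM in distal crypts, against 86.4 FPKM in proximal crypts (1.03-fold). Kcne3 was thus nearly equal between the libraries and above its pore subunit in both. Of genes with at least 20 FPKM, 17.0% had a log2 ratio as high as that of Kcnq1 and 67.9% as high as that of Kcne3.

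The other 2 measured voltage-gated genes were low. Kcnh6, of the ether-a-go-go-related family, stood at 1.70 FPKM in distal crypts, against 1.68 FPKM in proximal crypts. Kcnh3 stood at 1.14 FPKM in distal crypts, against 0.173 FPKM in proximal crypts, a proximal value under the level that about 3 reads give a gene of 942 bases (0.426 FPKM, and less for longer genes), so no plain fold is given. The authors' deposited table gave Kcnh3 a log2 fold change of 2.72 with an implied standard error of 2.56 and did not call it, and 1.70% of the genes tested in that table with 1 to 5 FPKM had a larger error. Kcnh3 has the same locus in the table as Mcrs1, at 53.0 FPKM in distal crypts, against 41.0 FPKM in proximal crypts, and with no strand stated for the counting, reads of the overlap cannot be assigned to either gene. Outside the Kcnh and Kcnq families, 0 of 26 voltage-gated genes were measured, and the highest value among them in distal crypts was the 0.660 FPKM of Kcnd2. The lymphocyte channel Kcna3 stood at 0.116 FPKM in distal crypts, against 0.0675 FPKM in proximal crypts.

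The inward rectifiers, which pass potassium more easily into the cell than out of it, were low as a class and mostly lower in distal crypts. Over 15 genes they summed to 5.68 FPKM in distal crypts, against 9.93 FPKM in proximal crypts, and 4 were measured, 3 of them with the lower value in distal crypts (median log2 ratio -0.65). Kcnj15, on chromosome 11 at 35577083 to 35594291, stood at 0.265 FPKM in distal crypts, against 2.13 FPKM in proximal crypts. It was the only 1 of 17 potassium channel genes tested in the authors' deposited table that the table called, where 5.43% of all tested genes were called and 2.69% were called lower in distal crypts. That table gave a log2 fold change of -3.01 (implied error 0.86, q 0.0118). On the FPKM + 1 scale its log2 ratio was -1.31, and -0.44 with a pseudocount of 5 FPKM, no longer 2-fold. Its distal value lies under the level of about 3 reads for a short gene, so no plain fold is given.

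Kcnj5, a G protein-gated subunit on chromosome 8 at 32082892 to 32104412, stood at 0.929 FPKM in distal crypts, against 2.65 FPKM in proximal crypts, 2.85-fold higher in proximal crypts. Its log2 ratio of -0.92 missed 2-fold on the FPKM + 1 scale, and reached it with a pseudocount of 0.1 FPKM (-1.42) and with equal upper quartiles (-1.0001). The authors' deposited table gave Kcnj5 a log2 fold change of -1.51 (implied error 0.77, q 0.396), and made no call. Kcnj14 stood at 2.02 FPKM in distal crypts, against 2.91 FPKM in proximal crypts. Kcnj9, another G protein-gated subunit, went the other way, at 1.56 FPKM in distal crypts, against 1.001 FPKM in proximal crypts, and the deposited table called neither.

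Several marker lists of other cells were lower in distal crypts beside Kcnj15 and Kcnj5. Of all measured genes, 3.91% were at least 2-fold lower in distal crypts. B cell markers, 4 of 5 found, were at least 2-fold lower in distal crypts in 4 of 4 cases and summed to 1.05 FPKM in distal crypts, against 23.2 FPKM in proximal crypts. Endocrine cell markers, 7 of 8 found, were at least 2-fold lower in 3 of 7 and summed to 86.7 FPKM in distal crypts, against 265 FPKM in proximal crypts. Scg2 alone of the 7 went the other way, at 4.07 FPKM in distal crypts, against 3.50 FPKM in proximal crypts. Mast cell markers, 5 of 5 found, were at least 2-fold lower in 3 of 5 and summed to 34.0 FPKM in distal crypts, against 85.6 FPKM in proximal crypts. None of these markers was listed at 0 in both libraries. T cell markers, all 6 found, summed to 8.94 FPKM in distal crypts, against 10.6 FPKM in proximal crypts. The 5 macrophage markers found, with Emr1 listed at 0 in both, summed to 118 FPKM in distal crypts, against 105 FPKM in proximal crypts. Without Cd14, which gave most of it, the macrophage sum was 2.93 FPKM in distal crypts, against 4.12 FPKM in proximal crypts. The part of these cells in the inward rectifier values was not tested.

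The genes of the ATP-sensitive channel were under 1 FPKM in both libraries. Its pore gene Kcnj11 stood at 0.293 FPKM in distal crypts, against 0.443 FPKM in proximal crypts, and its sulfonylurea receptor Abcc8 at 0.294 FPKM in distal crypts, against 0.830 FPKM in proximal crypts. The other pore gene, Kcnj8, was listed at 0 in both, and the other receptor, Abcc9, stood at 0.0153 FPKM in distal crypts, against 0.0184 FPKM in proximal crypts. Kcnj1, the luminal secretory channel of the kidney, Kcnj16 and Kcnj4 were also listed at 0 in both.

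**Figure D4:**
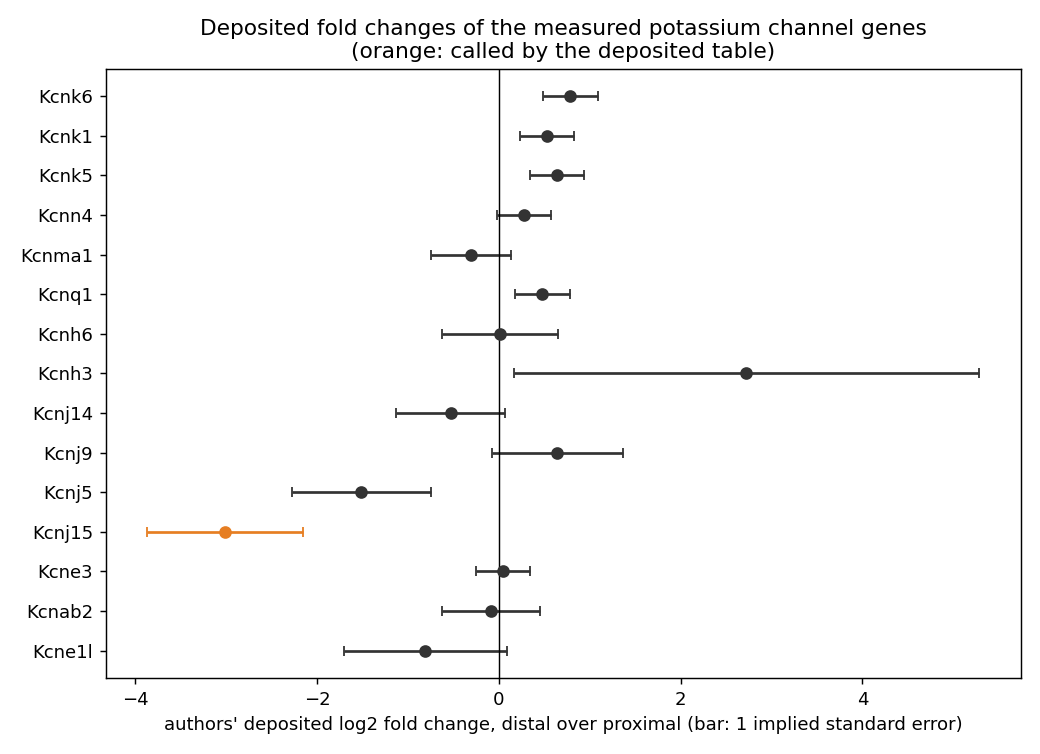
Log2 fold change of distal over proximal from the authors' deposited table (horizontal axis) for the 15 measured potassium channel genes, with bars of 1 standard error implied by the table's test statistic. Kcnj15, in orange, is the only gene the table called, and the bar of Kcnh3, with an implied error of 2.56, is the widest.

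Of the auxiliary genes, 3 of 15 were measured. Besides Kcne3, Kcnab2, a beta subunit of voltage-gated channels, stood at 6.10 FPKM in distal crypts, against 6.48 FPKM in proximal crypts. Kcnab2 has the same locus in the table as LOC500594, which is listed at 0 in both. Kcne1l, which has the current symbol Kcne5, stood at 1.18 FPKM in distal crypts, against 2.07 FPKM in proximal crypts, with a log2 fold change of -0.81 and an implied standard error of 0.90 in the authors' deposited table. Its difference was smaller than this error. Kcne1 and Kcne4 were listed at 0 in both libraries and Kcne2 stood at 0.184 FPKM in distal crypts, against 0.109 FPKM in proximal crypts, so Kcne3 was the only gene of its family above 3 FPKM. Of the 3 Kcnip genes, which bind Kcnd channels, Kcnip2 was the only one above 0.

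Where a measured gene lay close to another gene of its family, the neighbour was under 1 FPKM. In the rn4 build 8 pairs of potassium channel genes lay within 100 kb of each other, and in 0 of them were both genes measured. In 3 pairs one was. Kcnk5 lies 86.0 kb from Kcnk16, which stood at 0.0321 FPKM in distal crypts, against 0.114 FPKM in proximal crypts. Kcnj5 lies 53.8 kb from Kcnj1, listed at 0 in both, and Kcnj9 lies 22.2 kb from Kcnj10, at 0.181 FPKM in distal crypts, against 0.355 FPKM in proximal crypts. No other gene of the table lay wholly between the genes of any of these 3 pairs.

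Genes that work beside potassium channels were described from lists written out for this tissue with earlier results of these data known. The counts and medians of these lists are therefore descriptions and not a test. Of 12 genes that carry potassium or build the pumps, 10 were measured, 2 were 2-fold or more higher in distal crypts and 0 in proximal crypts. Beside this, 3.71% of all measured genes were 2-fold or more higher in distal crypts and 3.91% in proximal crypts. The list had a median log2 ratio of 0.33, against 0.09 over all measured genes and 0.17 over those with at least 20 FPKM. The 2 genes beyond 2-fold were the luminal potassium pump Atp12a and the pump regulator Fxyd4. Atp12a stood at 20.4 FPKM in distal crypts, against 0.470 FPKM in proximal crypts (43.4-fold). Fxyd4 stood at 28.1 FPKM in distal crypts, against 0.354 FPKM in proximal crypts. The sodium pump subunit Atp1b1 overlaps another gene in the table, so its value can hold reads of that gene. Atp1b1 stood at 1154 FPKM in distal crypts, against 775 FPKM in proximal crypts. Fxyd3 stood at 230 FPKM in distal crypts, against 162 FPKM in proximal crypts. The cotransporter Slc12a2, which loads potassium and chloride at the basolateral side, was nearly equal at 147 FPKM in distal crypts, against 148 FPKM in proximal crypts.

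Of 13 regulators of potassium channels and salt handling, 11 were measured, 1 was 2-fold or more higher in distal crypts and 0 in proximal crypts. Beside this, the shares of all measured genes were 3.71% and 3.91%. The list had a median log2 ratio of 0.15, against 0.09 over all measured genes and 0.17 over those with at least 20 FPKM. The kinase Stk39, which acts on cation-chloride cotransporters, stood at 34.6 FPKM in distal crypts, against 13.4 FPKM in proximal crypts (2.59-fold) and was called by the authors' deposited table (q 0.000509). Hsd11b2, which keeps glucocorticoids from the aldosterone receptor, stood at 525 FPKM in distal crypts, against 279 FPKM in proximal crypts, and the aldosterone-induced kinase Sgk1 at 133 FPKM in distal crypts, against 73.9 FPKM in proximal crypts. The kinase Wnk4 stood at 57.5 FPKM in distal crypts, against 53.2 FPKM in proximal crypts. Vipr1 was not analysed here.

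A list drawn up for anion secretion held 6 genes, among them an exchanger and a goblet cell product, and was not limited to channels. Of these 6, 3 were 2-fold or more higher in distal crypts and 0 in proximal crypts, beside 3.71% and 3.91% of all measured genes. The list had a median log2 ratio of 1.16, against 0.09 over all measured genes. The 3 genes beyond 2-fold were the anion channels Best2 and Ano1 and the goblet cell product Clca1. Best2 stood at 23.0 FPKM in distal crypts, against 0.740 FPKM in proximal crypts. Ano1 stood at 63.7 FPKM in distal crypts, against 16.0 FPKM in proximal crypts, and Clca1 at 1992 FPKM in distal crypts, against 417 FPKM in proximal crypts. The deposited table called Best2 and Ano1. Cftr, the cyclic AMP-activated chloride channel, stood at 24.0 FPKM in distal crypts, against 38.2 FPKM in proximal crypts, and the exchanger Slc26a3 at 179 FPKM in distal crypts, against 226 FPKM in proximal crypts. Of the 10 channel partners outside the Kcn symbols, 2 were measured, Lrrc26 and Amigo1, at 1.80 FPKM in distal crypts, against 2.88 FPKM in proximal crypts for the second, with a median log2 ratio of 0.09. Neither was 2-fold apart.

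**Figure D5:**
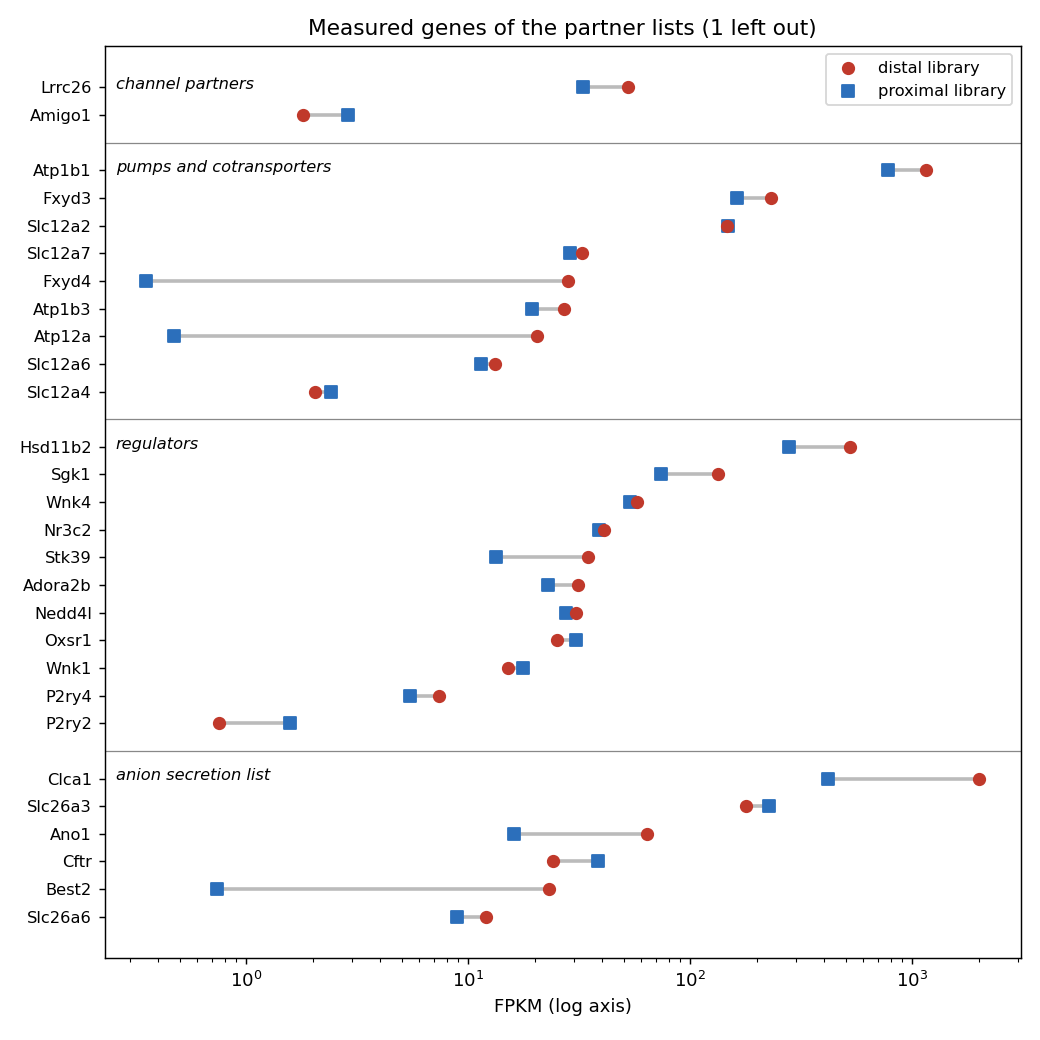
FPKM (horizontal log axis) of measured genes of the 4 partner lists, with 1 left out, in the distal library (red circles) and the proximal library (blue squares), with lists separated by lines. Atp12a, Fxyd4 and Best2 lie under 1 FPKM in the proximal library and above 20 FPKM in the distal one, while Slc12a2, Slc12a7, Wnk4 and Nr3c2 nearly coincide.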

How the data were processed

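Messenger RNA of 2 libraries, 1 per region, was analysed, and the 5 chromatin libraries were not used here. Per the submitters' processing notes, CASAVA, TopHat2 and the build rn4 go with the RNA samples, while the sources used here do not name the program behind the table. Deposited values were read as the authors' FPKM: they are not whole and differ in sum (463561 FPKM for distal crypts, 413026 FPKM for proximal crypts). The deposited table also holds the authors' log2 fold change, test statistic, p-value and q-value. Its p-value equals the two-sided normal tail of the statistic to within 2.76e-06, so fold change over statistic was used as the implied standard error.

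Of 16492 rows, 24 without a usable status or given again were left out. Starts were raised by 1 to count from 1. The sources used here give no read totals. Where one value was 0, the p-value found most often was taken to mark 1 read (234 rows for distal crypts, 232 for proximal crypts), worth 0.113 FPKM in distal and 0.142 FPKM in proximal crypts for olfactory receptor genes of about 943 and 942 bases (4 and 8 genes). Folds beside FPKM are plain ratios, given where the lower value is at least 0.426 FPKM, or 3 such reads.

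Ratios used a pseudocount of 1 FPKM. Every measured member was named, with the deposited statistics for those 2-fold apart or called. For some other members they were added after the values were seen. Partner genes were named if 2-fold apart or among the highest 3 of their list (1 is not reported here), and Slc12a2, Amigo1 and the channel subunits were named after their values were seen. Members and lists were chosen with earlier results of these data known. No test of the regions was made. The ratio step was tested on simulated data without noise, changed only in genes with a mean above 20 FPKM. That test does not cover the low genes. The protein stretches planned were not used here. Promoters were matched by symbol to RefSeq. Python 3.11.15, pandas 2.3.3 and numpy 2.4.6 were used.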

Additional observations from a re-analysis of the deposited data

How the results depend on the processing

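As reported, 0 of 15 measured genes were 2-fold or more higher in distal crypts and 1 in proximal crypts. With a pseudocount of 0.1 FPKM these counts were 1 and 2 (4.92% and 6.27% of all measured genes), and with 5 FPKM 0 and 0 (1.99% and 1.28%). With a minimum of 5 FPKM, which leaves 7 genes, they were 0 and 0 (3.65% and 2.98%), and 0 genes were called by the authors' deposited table. Equal upper quartiles gave 0 and 2 (2.88% and 4.71%). At 1.5-fold they were 3 and 2 (9.19% and 8.12%), and at 4-fold 0 and 0 (0.884% and 0.751%). The median log2 ratio of 0.05 was 0.46 with a minimum of 5 FPKM, 0 over all 87 genes, -0.053 after rescaling to a median of 0 and -0.10 with equal upper quartiles. A minimum of 5 FPKM leaves fewer genes, and rescaling lowers every distal value. A larger pseudocount shrinks the ratios of low genes and a smaller one widens them, and a changed fold line changes the counts by definition. Of the 87 genes, 32 were listed at 0 in both libraries, which gives each a ratio of 0. Leaving out Kcnab2 and Kcnh3, which share a locus with another gene, changed neither the counts nor the median. Among single genes, 2 of 15, Kcne3 and Kcnh6, changed sign under both rescalings and 0 under either pseudocount. No paired analysis was possible because each region has 1 library, and for the same reason no replicate could be left out. Depth limits what can be said of the 72 genes under 1 FPKM, where a value can rest on a single read.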

Other observations

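The Kctd genes, whose proteins share a domain with voltage-gated potassium channels but form no channel pore, were looked at after the values were seen. The table holds 14 of them, of which 9 were measured, a larger part than the 15 of 87 among the channel genes. Of all genes, 59.8% were measured. None of the 9 was at least 2-fold apart in either direction, beside 7.62% of all measured genes, and the authors' deposited table called 0 of them. The median log2 ratio of these 9 was 0.25, beside 0.09 over all measured genes. Kctd5 stood at 34.3 FPKM in distal crypts, against 24.1 FPKM in proximal crypts (1.43-fold), Kctd3 at 21.0 FPKM in distal crypts, against 19.5 FPKM in proximal crypts, and Kctd15 at 2.30 FPKM in distal crypts, against 3.25 FPKM in proximal crypts.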
